A study of Mus musculus with 6 samples.

Results

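A set of 10 immediate early genes outside the AP-1 family was followed in fat of NOD mice, which develop autoimmune diabetes. The set held the transcription factors Egr1, Egr2, Egr3 and Nr4a1, the response genes Ier2 and Ier3, and the feedback genes Zfp36, Btg2, Dusp1 and Socs3. Members were taken by gene symbol from the 18193 genes that had a named probe set on the array, each gene being represented by its brightest probe set (mean of the 6 arrays). The 10 genes had 15 probe sets, 6 genes with 1 probe set and 4 with more. A filter on mean signal (above 164, described with the processing) left 13058 genes and 9 of the 10 members. Egr2, with a mean signal of 163.6, lay just under the filter, and Egr3, at 246.1, was the lowest member above it.

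Immediate early genes are switched on within minutes of a growth factor, cytokine or stress signal, before any new protein has to be made. Signals reach them through the MAP kinases, serum response factor, CREB and STAT factors, and their transcripts are short-lived. Part of the set codes for transcription factors that carry the signal on to later genes, and part codes for proteins that shut the signal down again, by removing phosphates from MAP kinases, blocking cytokine receptors or degrading mRNA. In fat these genes respond to insulin, to feeding and to inflammatory cytokines.

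There were 3 groups of 2 arrays. The AAT-treated mice had received alpha-1-antitrypsin, a serum inhibitor of proteases, and showed stable reversion with insulin independence. The diabetic mice had blood glucose above 300 mg/dl on 3 consecutive days. The normoglycemic mice were females aged 10 weeks. All were NOD mice and all RNA came from fat tissue. The depot is not given in the labels, and neither are the dose of AAT and the age and sex of the AAT-treated and diabetic mice. Nothing in the labels tells whether paired arrays represent different mice, so each p-value here measures the spread between these samples alone, which may be technical.

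The arrays held MAS5 signals, intensities on a linear scale that the authors had scaled alike, with array medians between 175.7 and 272.2. The beta-actin control gives a ratio of its 3′ end over its 5′ end that increases with RNA breakdown or short copies. This ratio was 9.08 and 5.87 in AAT-treated fat, 15.2 and 15.5 in diabetic fat, and 3.63 and 4.30 in normoglycemic fat. Spiked-in hybridisation controls stood apart on AAT-treated 2 (mean signal 86286) and normoglycemic 1 (128547), against 25159 to 48494 on the other 4 arrays. All 8 measured adipocyte markers (Adipoq, Fabp4 and others) were above the signal filter on average.

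Differences are given on the scale of log2(signal + 74), which understates differences of weak signals, with the moderated SE of limma (n = 2 arrays in each group). Where counts call a gene higher or lower in a group, its mean on this scale is meant. By limma with Benjamini-Hochberg adjustment, 0 of 13058 genes passed an adjusted p of 0.05 in any of the 3 comparisons (0%), so no member did. An unadjusted p under 0.05 was reached by 1291 genes (9.89%) between diabetic and normoglycemic fat, by 624 (4.78%) between AAT-treated and diabetic fat and by 672 (5.15%) between AAT-treated and normoglycemic fat. The adjusted p-values below are from this fit, over all genes kept. In such bulk tissue, fewer cells of a type and less RNA per cell cannot be told apart. Since the 10 genes were chosen with earlier results of these arrays known, counts over them are descriptions.

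Egr1 codes for a zinc finger transcription factor that binds GC-rich sites in promoters and is among the quickest genes to respond to serum. Its signal (probe set 1417065_at) was 11184.5 and 5425 in AAT-treated fat, 640.4 and 1541 in diabetic fat, and 7993 and 8115 in normoglycemic fat. Both diabetic arrays lay below all 4 other arrays, and the AAT-treated arrays lay on either side of the normoglycemic pair. The difference between diabetic and normoglycemic fat was −2.92 ± 0.49, or 7.57-fold lower in diabetic fat (adjusted p = 0.321). AAT-treated fat differed from diabetic fat by 2.87 ± 0.49, or 7.33-fold (adjusted p = 0.388). In the order of the p-values of all 13058 genes, Egr1 stood at place 10 and at place 8 in these comparisons. The same diabetic arrays enter both, so they are not independent.

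Egr2 and Egr3 are relatives of Egr1 with a like zinc finger domain, known for roles in myelination, in T cells and in early fat cell differentiation. Egr2 (1427683_at) had signals of 187.6 and 167.5 in AAT-treated, 89.1 and 354.3 in diabetic, and 21.5 and 161.3 in normoglycemic fat. Its highest value and its second lowest value both came from diabetic fat, and the difference between diabetic and normoglycemic fat, from the fit without the filter, was 0.82 ± 0.63. The other Egr2 probe set (1427682_a_at), almost as bright with a mean signal of 163.2, differed by 0.44. Egr3 (1421486_at) had signals of 50.3 and 447.8 in AAT-treated, 80.6 and 194.0 in diabetic, and 152.5 and 551.3 in normoglycemic fat, with all 3 groups overlapping. The Egr3 difference between diabetic and normoglycemic fat was −0.89 ± 0.79 (adjusted p = 0.696), and its second probe set, under the signal filter, differed by 0.50, with the opposite sign. Without the arrays with bright hybridisation controls, AAT-treated 2 and normoglycemic 1, the Egr3 difference was −1.62 between diabetic and normoglycemic fat and −2.33 between AAT-treated and normoglycemic fat. Without normoglycemic 2 these differences were −0.15 and 0.17. Neither relative, both weakly measured, had its diabetic arrays below the other groups.

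Nr4a1 codes for an orphan nuclear receptor that is induced by cAMP and by calcium signals. Its signal (1416505_at) was 546.3 and 684.7 in AAT-treated, 337.4 and 942.0 in diabetic, and 701.0 and 658.1 in normoglycemic fat. The diabetic arrays held both the lowest and the highest value. The difference between diabetic and normoglycemic fat was −0.22 ± 0.44 (adjusted p = 0.870), and that between AAT-treated and diabetic fat was 0.09 ± 0.44.

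Ier2 codes for a small nuclear protein induced along with the Egr genes, and Ier3 for a protein that tunes survival signals under stress. Ier2 (1416442_at) had signals of 3186 and 1753 in AAT-treated, 537.6 and 880.7 in diabetic, and 1811 and 1455 in normoglycemic fat. Both diabetic values were below the other 4. The Ier2 difference was −1.15 ± 0.39 between diabetic and normoglycemic fat (adjusted p = 0.482) and 1.68 ± 0.39 between AAT-treated and diabetic fat (adjusted p = 0.649). Ier3 (1419647_a_at) had signals of 1015 and 1073 in AAT-treated, 824.8 and 1296 in diabetic, and 1043 and 1226 in normoglycemic fat. As with Nr4a1, diabetic 1 was the lowest of the 6 arrays for Ier3 and diabetic 2 the highest, and no Ier3 difference in any comparison exceeded its SE (−0.12 ± 0.33 between diabetic and normoglycemic fat).

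Zfp36 codes for tristetraprolin, which binds AU-rich elements and speeds the decay of cytokine mRNAs. Its signal (1452519_a_at) was 3953 and 3590 in AAT-treated, 836.5 and 1066 in diabetic, and 3658 and 2447 in normoglycemic fat. The diabetic pair was again lowest, with little spread within the pair. The difference was −1.59 ± 0.33 between diabetic and normoglycemic fat, or 3.01-fold lower (adjusted p = 0.459), and 1.91 ± 0.33 between AAT-treated and diabetic fat, or 3.77-fold (adjusted p = 0.395). Among the members, Zfp36 had the smallest p after Egr1 in both comparisons, at places 23 and 12 of all genes.

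Btg2 codes for an antiproliferative protein that recruits the deadenylase complex to mRNAs. Its standing probe set (1416250_at) gave 3764 and 1291 in AAT-treated, 2096 and 1439 in diabetic, and 1256 and 2530 in normoglycemic fat, with all groups overlapping and a difference of −0.04 ± 0.54 between diabetic and normoglycemic fat. Its other probe set (1448272_at), also above the filter, gave 1951 and 1680 in AAT-treated, 1196 and 1090 in diabetic, and 1558 and 2121 in normoglycemic fat. There the diabetic arrays lay below the other 4, and the difference was −0.64 between diabetic and normoglycemic fat and 0.63 between AAT-treated and diabetic fat. The 2 probe sets of Btg2 thus disagreed.

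Dusp1 codes for a phosphatase that switches off p38, JNK and ERK in the nucleus, and is induced by stress and by glucocorticoids. Its signal (1448830_at) was 5135 and 3226 in AAT-treated, 1401 and 1797 in diabetic, and 3146 and 5870 in normoglycemic fat. Both diabetic values were below the other 4. The Dusp1 difference was −1.40 ± 0.41 between diabetic and normoglycemic fat (adjusted p = 0.468) and 1.32 ± 0.41 between AAT-treated and diabetic fat (adjusted p = 0.961).

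Socs3 codes for an inhibitor of cytokine and leptin receptors that is induced by STAT3. Its signal (1455899_x_at) was 430.3 and 913.9 in AAT-treated, 108.3 and 502.1 in diabetic, and 341.9 and 757.1 in normoglycemic fat. Diabetic 1 was far below the other 5 arrays, but diabetic 2 lay within the range of both other groups. The difference was −0.86 ± 0.62 between diabetic and normoglycemic fat (adjusted p = 0.641) and 1.12 ± 0.62 between AAT-treated and diabetic fat (adjusted p = 0.961). These Socs3 differences were −0.029 and 0.29 without diabetic 1, and −1.69 and 1.95 without diabetic 2. Its second probe set above the filter differed by −0.65 and 0.59, with the same signs.

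**Figure D1:**
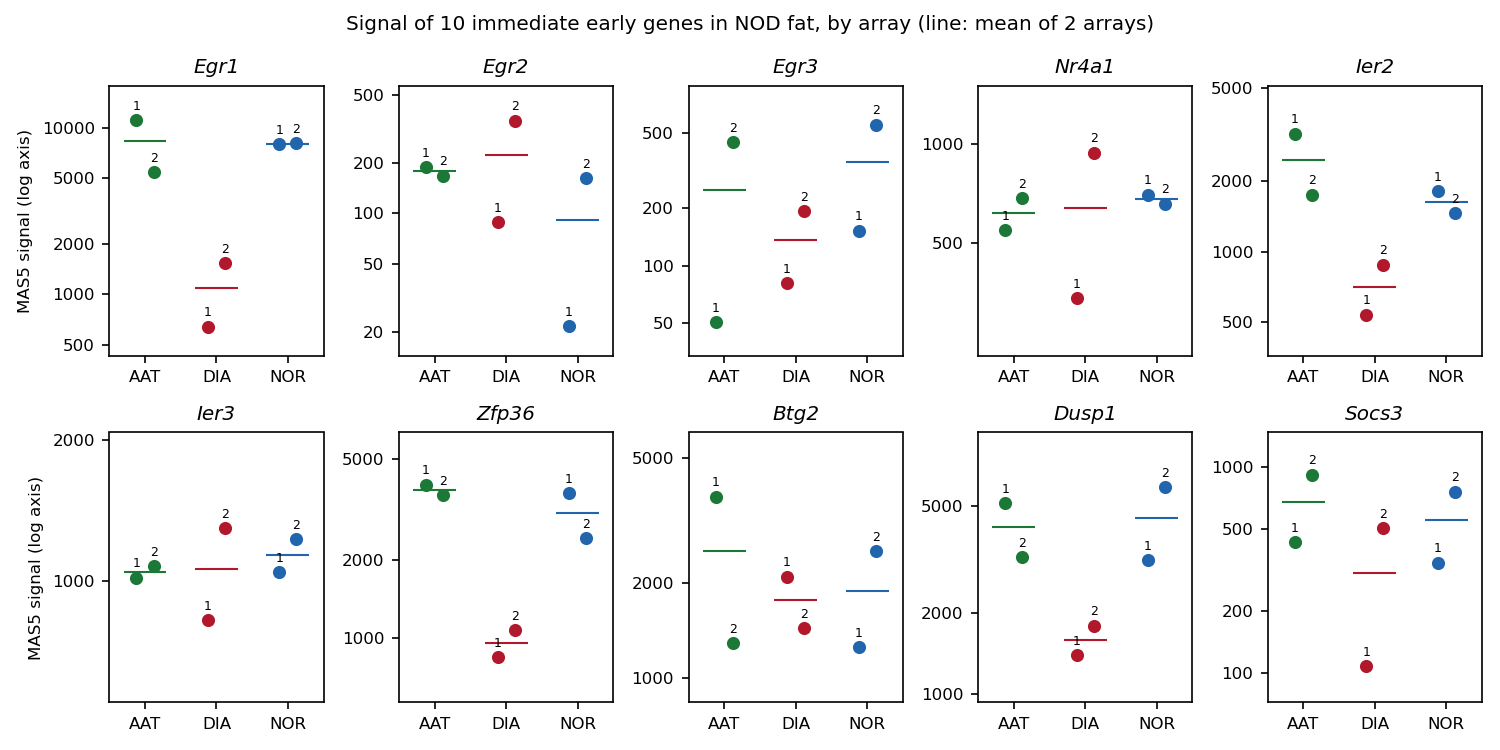
MAS5 signal (log axis) of the 10 genes in AAT-treated (AAT), diabetic (DIA) and normoglycemic (NOR) fat. Points are arrays, numbered by replicate, and lines are means of 2 arrays. For Egr1, Ier2, Zfp36 and Dusp1 both diabetic points lie below the other 4.

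Promoter sequences were set beside these levels. RefSeq windows of 250 bases before the annotated start (build GRCm38.p6) were matched by symbol for 7 of the 10 members. No window was used for Egr1, Egr3 and Ier2, so their promoters were not searched. Shown are Zfp36 and Dusp1, lowest on both diabetic arrays, and Nr4a1 and Ier3, whose diabetic arrays held the lowest and the highest value. Each is read 5′ to 3′ on the strand of the gene. Capitals mark matches to the CArG box (the site of serum response factor), the cAMP response element half-site TGACG, the Egr site GCGNGGGCG, the AP-1 site TGANTCA, the STAT site TTCNNNGAA and the TATA box TATAAA, each searched on both strands. The full cAMP response element TGACGTCA holds a half-site on each strand.
Zfp36 (chr7:28379229-28379478, minus strand): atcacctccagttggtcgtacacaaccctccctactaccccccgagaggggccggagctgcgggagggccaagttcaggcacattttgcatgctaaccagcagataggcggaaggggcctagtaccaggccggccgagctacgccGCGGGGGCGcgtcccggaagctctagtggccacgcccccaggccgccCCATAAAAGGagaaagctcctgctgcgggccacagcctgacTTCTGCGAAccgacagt
Dusp1 (chr17:26508473-26508722, minus strand): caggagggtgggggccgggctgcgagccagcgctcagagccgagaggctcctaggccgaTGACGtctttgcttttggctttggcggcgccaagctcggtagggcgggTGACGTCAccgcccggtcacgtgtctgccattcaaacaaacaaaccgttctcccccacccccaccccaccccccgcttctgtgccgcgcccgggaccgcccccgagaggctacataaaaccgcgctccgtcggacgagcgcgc
Nr4a1 (chr15:101266596-101266845, plus strand): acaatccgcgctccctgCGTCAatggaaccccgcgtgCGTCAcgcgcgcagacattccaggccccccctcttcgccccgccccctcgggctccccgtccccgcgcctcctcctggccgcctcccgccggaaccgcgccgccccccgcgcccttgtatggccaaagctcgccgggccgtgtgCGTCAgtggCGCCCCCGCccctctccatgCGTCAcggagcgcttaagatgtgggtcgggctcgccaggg
Ier3 (chr17:35821463-35821712, plus strand): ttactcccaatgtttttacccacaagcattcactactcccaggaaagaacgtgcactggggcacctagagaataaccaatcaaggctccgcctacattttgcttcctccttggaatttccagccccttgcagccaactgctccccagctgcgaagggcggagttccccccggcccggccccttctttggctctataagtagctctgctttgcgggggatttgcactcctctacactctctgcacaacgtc

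The Zfp36 window held a CArG box 58 bases before the start, an Egr site at 105 bases and a STAT site at 17 bases. The Dusp1 window held the full cAMP response element, at 143 bases, and a further half-site at 191 bases. Nr4a1 had 4 half-sites and 1 Egr site, and Ier3 had no match to any of these letters. Zfp36 and Dusp1, alike on the arrays, shared none of these motifs within their windows. Over the 7 genes, which had 11 windows because Egr2 has several starts, the CArG box was found in Zfp36 and Egr2 (1.47% of 32851 mouse windows of this length hold it). The full cAMP response element was found in Dusp1 and Btg2 (1.55% of all windows), and the half-site in Btg2, Dusp1, Egr2 and Nr4a1 (17.8%). The Egr site was found in Btg2, Nr4a1, Socs3 and Zfp36 (4.70%), and the STAT site in Socs3 and Zfp36 (7.02%). The Ets core CCGGAA, not in capitals above, was found in Egr2, Nr4a1 and Zfp36 (12%). The AP-1 site (6.75%) and the TATA box (12.4%) were found in 0 of the 7. These shares are per window, while the members are counted per gene, and Egr2 has several windows in which a match could fall. A match describes letters in these windows and does not show binding in fat.

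**Figure D2:**
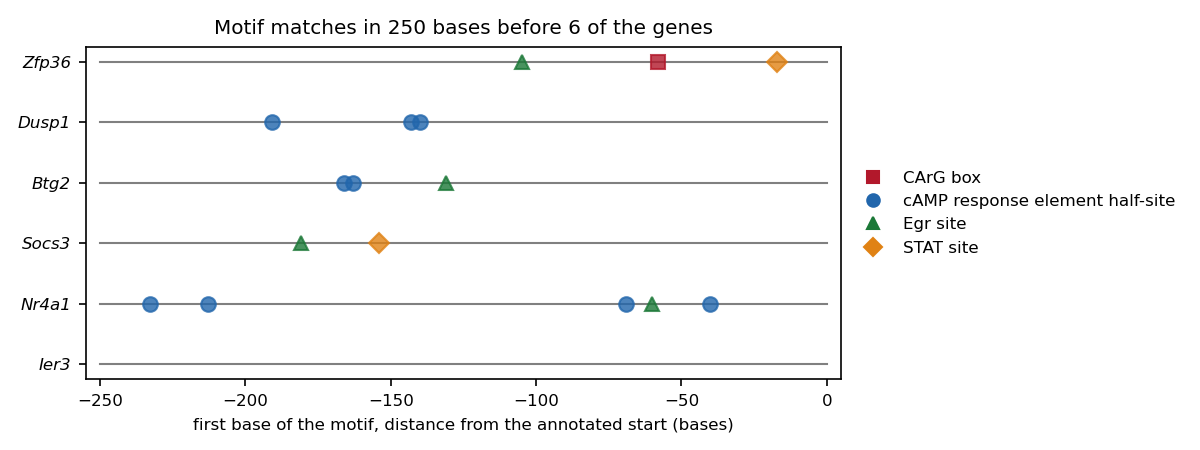
Position of motif matches (first base, distance in bases from the annotated start) in the 250 bases before 6 of the genes. Zfp36 has CArG box, Egr site and STAT site matches, Dusp1 has cAMP response element half-sites, and Ier3 has no match.

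Between diabetic and normoglycemic fat, 9 of 9 members above the filter had a lower mean in diabetic fat, where 53.6% of all genes did; with arrays centred on their median it was 8 of 9, Btg2 being at 0.072. It was 7 of 9 without diabetic 1, and 8 of 9 without diabetic 2 or without normoglycemic 2. For Nr4a1, Ier3 and Btg2 the difference was smaller than its SE. Egr2, under the filter, was higher (0.82 ± 0.63). The groups did not overlap for 4 of the 9 members (Egr1, Ier2, Zfp36 and Dusp1), all lower, against 24.5% of all genes lower without overlap. These 4 were also the members with an unadjusted p under 0.05, against 4.62% of all genes in that direction. The median difference over the 9 members was −0.89, beside −0.06 over all genes, and over all 10 members it was −0.87. That median depended on the array: it was −0.39 without diabetic 1, −1.38 without diabetic 2 and −0.31 without normoglycemic 2.

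Between AAT-treated and diabetic fat, 9 of 9 members above the filter had a higher mean log2 level in AAT-treated fat, where 51.2% of all genes did. It was 6 of 9 without diabetic 1 or without AAT-treated 2, and 8 of 9 without AAT-treated 1. For Egr3, Nr4a1, Ier3 and Btg2 the difference was smaller than its SE, down to 0.01 ± 0.33 for Ier3. On the linear scale the mean signal was lower in AAT-treated fat for Nr4a1 (615.5 against 639.7) and Ier3 (1044 against 1060). For Egr2, under the filter, the difference was −0.07 ± 0.63. The groups did not overlap for the same 4 members, all higher, against 17.9% of all genes. Their unadjusted p-values were under 0.05, against 2.95% of all genes in that direction. The median over the 9 members was 1.12, beside 0.01 over all genes, and over all 10 members it was 0.73. The median over the 10 was 1.12 without AAT-treated 1, 1.11 without diabetic 2 and 0.45 without diabetic 1. Across both comparisons, Egr1, Ier2, Zfp36 and Dusp1 had both diabetic arrays below all 4 others, as did 9.57% of all genes.

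AAT-treated and normoglycemic fat overlapped for 9 of 9 members above the filter, where 32.1% of all genes did not overlap. The median over the 9 members was −0.05, beside −0.03 over all genes, with 4 members higher (48% of all genes) and 5 lower (52%) in AAT-treated fat (Egr1 and Dusp1 changed sign with arrays centred, to 0.061 and 0.030) and 0 at an unadjusted p under 0.05, against 5.15% of all genes. These counts turned with the array: 2 members were higher and 7 lower without normoglycemic 1, and 7 were higher and 2 lower without normoglycemic 2. Without both bright arrays, which leaves 1 array in each of these groups, the Egr3 difference was −2.33. The intervals were wide: with 95% confidence, the difference between AAT-treated and normoglycemic fat lay between −1.16 and 1.06 for Egr1, between −0.44 and 1.09 for Zfp36, between −0.38 and 1.43 for Ier2 and between −1.01 and 0.86 for Dusp1. Egr2, under the filter, was higher on both AAT-treated arrays than on the normoglycemic ones (0.75 ± 0.63). That difference was 0.095 without normoglycemic 1 and 1.40 without normoglycemic 2. On the other Egr2 probe set the 2 groups overlapped, and the difference was −0.08, with the opposite sign.

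**Figure D3:**
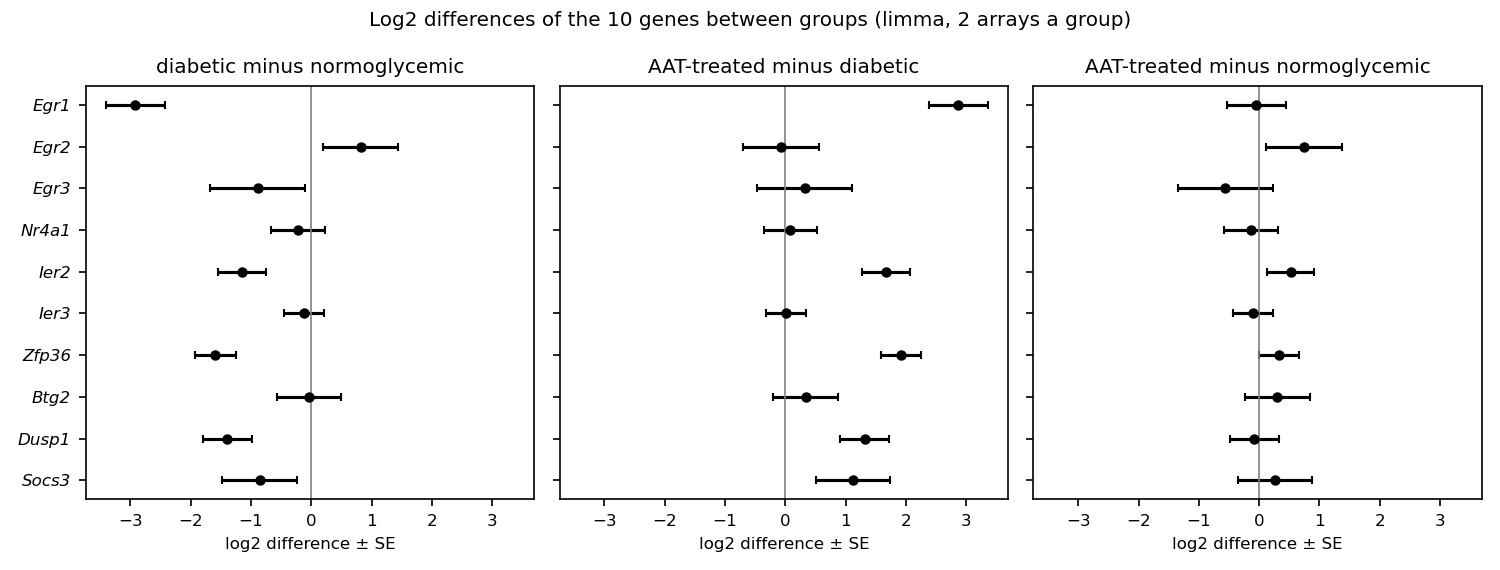
Log2 differences ± SE (limma, 2 arrays per group) of the 10 genes in the 3 comparisons. Egr1, Ier2, Zfp36 and Dusp1 lie left of 0 for diabetic minus normoglycemic, right of 0 for AAT-treated minus diabetic, and within about 1 SE of 0, or little beyond, for AAT-treated minus normoglycemic.

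The 2 diabetic arrays differed from each other in these genes. Diabetic 1 held the lowest of the 6 values for 7 of the 10 members (7 of the 9 above the filter, against 16.4% of all genes). Diabetic 2 was above diabetic 1 for 9 of 10 members, Btg2 being the exception, against 48.4% of all genes. Without diabetic 1 the Egr1 difference between diabetic and normoglycemic fat was −2.33. Leaving out both arrays with bright hybridisation controls gave −2.93 for Egr1, −1.31 for Zfp36, −1.84 for Dusp1 and −1.001 for Ier2 between diabetic and normoglycemic fat. Between AAT-treated and diabetic fat it gave 3.39 for Egr1, 1.98 for Zfp36, 1.65 for Dusp1 and 2.09 for Ier2. By unadjusted p under 0.05, Ier2 was no longer among the lower genes without diabetic 1, without normoglycemic 1, without both bright arrays or with arrays centred on their median, and Dusp1 was not without normoglycemic 2. Between AAT-treated and diabetic fat Dusp1 was not among the higher genes without AAT-treated 1 or without diabetic 1. Without both bright arrays, the difference was −1.62 for Egr3 between diabetic and normoglycemic fat, and 1.08 for Btg2 between AAT-treated and diabetic fat. Leaving out an array of a compared group leaves 1 array there, without a spread of its own. The calls by unadjusted p from such fits are descriptions.

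Other measures of the arrays moved with these 4 genes. The beta-actin ratio was highest on the 2 diabetic arrays, where Egr1, Ier2, Zfp36 and Dusp1 were lowest. The same ratio for Gapdh was 2.31 and 0.79 in AAT-treated, 2.46 and 4.63 in diabetic, and 0.91 and 0.95 in normoglycemic fat. Both ratios were highest on the diabetic arrays. The AAT-treated arrays lay above the normoglycemic ones in the beta-actin ratio and on either side of them in the Gapdh ratio. The summed signal of 6 red cell and platelet markers was 10980 and 4077 in AAT-treated, 2648 and 3329 in diabetic, and 9695 and 12230 in normoglycemic fat, so that it too was lowest on the diabetic arrays. Of these markers 0 of 6 had a higher mean in diabetic than in normoglycemic fat, and 4 of 6 had a higher mean in AAT-treated than in diabetic fat. Alas2, Slc4a1 and Ppbp had both diabetic arrays below all others, while Pf4, Hbb-b2 and Hba-a1 did not. Pf4 on diabetic 2 (2032) lay above both AAT-treated arrays (1504 and 1806). Hbb-b2 on AAT-treated 2 (167.3) lay below diabetic 1 (199.9), and Hba-a1 was under the filter (mean signal 104.2). The summed signal of 8 smooth muscle markers was 61431 and 93394 in AAT-treated, 15153 and 10661 in diabetic, and 7813 and 31883 in normoglycemic fat, lowest on normoglycemic 1. Macrophage markers, 7 with a probe set and 6 above the filter, summed to 11997 and 7469 in AAT-treated, 11079 and 22121 in diabetic, and 4993 and 5059 in normoglycemic fat. The 8 adipocyte markers summed to 314070 and 536877 in AAT-treated, 331595 and 521912 in diabetic, and 837847 and 503801 in normoglycemic fat. Of them, 0 had a higher mean in AAT-treated than in normoglycemic fat. The 7 endothelial markers summed to 15344 and 3694, 11710 and 6999, and 2292 and 15853 in the same order, so arrays of a group differed widely. Neutrophil markers were weak, with 2 of 5 above the filter and Cxcr2 at a mean signal of 40.1. The part of RNA quality or of other cells in the levels of the 10 genes was not tested.

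**Figure D4:**
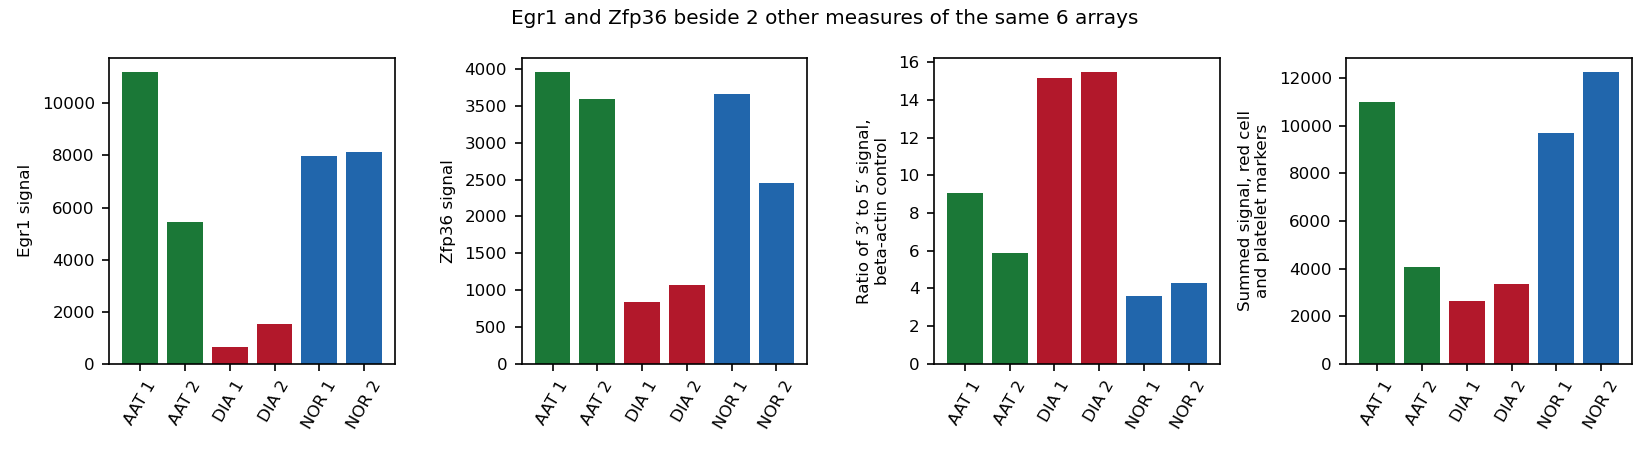
Bars give, for each of the 6 arrays, the signal of Egr1 and of Zfp36, the 3′ to 5′ ratio of the beta-actin control and the summed signal of 6 red cell and platelet markers. The diabetic arrays (DIA) have the lowest Egr1 and Zfp36 signals, the lowest summed marker signal and the highest ratios. Not every single marker is lowest there.

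Lists of other genes of the same response were set beside the 10. Their counts and medians stand against those of all genes kept. Of these, 46.4% were higher and 53.6% lower in diabetic than in normoglycemic fat (median −0.06), 51.2% were higher in AAT-treated than in diabetic fat (median 0.01) and 48% were higher in AAT-treated than in normoglycemic fat (median −0.03). In the AP-1 family, 8 of 10 genes were above the filter. Fos, the partner of Jun in AP-1, had both diabetic arrays below the other 4, as did Egr1, with 4021 and 2618 in AAT-treated, 189.5 and 751.2 in diabetic, and 2383 and 2200 in normoglycemic fat. Unlike those of Egr1, both AAT-treated arrays of Fos lay above both normoglycemic ones. Its difference was −2.34 ± 0.52 between diabetic and normoglycemic fat and 2.83 ± 0.52 between AAT-treated and diabetic fat. For Junb too both diabetic arrays lay below the other 4, with −0.78 ± 0.41 and 0.96 ± 0.41. Its AAT-treated arrays lay between the normoglycemic ones. Jund, a constitutively expressed relative, was higher in diabetic than in normoglycemic fat (1.07 ± 0.36). Fosl2 differed by 0.63 ± 0.44, but normoglycemic 2 (1492) lay above both diabetic arrays (1456 and 1419). Between diabetic and normoglycemic fat the median of the family was 0.08, with 3 of 8 genes lower. There 1 gene in each direction had an unadjusted p under 0.05, against 9.89% of all genes over both directions. Between AAT-treated and diabetic fat the median was 0.58 and 6 of 8 were higher. The 2 lower genes there were Jund (−0.20) and Atf3 (−0.11).

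Of 33 other immediate early genes with a probe set, 29 were above the filter. Of these 29, 17 were lower in diabetic than in normoglycemic fat (53.6% of all genes were), with a median of −0.06, beside −0.06 over all genes. Cebpd, a transcription factor of the acute phase and of early adipogenesis, had 2717 and 2922 in AAT-treated, 803.8 and 934.1 in diabetic, and 2994 and 2088 in normoglycemic fat. Cebpd differed by −1.45 ± 0.32 between diabetic and normoglycemic fat and by 1.62 ± 0.32 between AAT-treated and diabetic fat. Myc, the growth regulator, differed by −1.33 ± 0.37 between diabetic and normoglycemic fat. Cebpd and Myc were the 2 genes of the list with an unadjusted p under 0.05 there, both lower, against 4.62% of all genes in that direction. In the other direction Bhlhe40 (1.21 ± 0.58) and Phlda1 (1.18 ± 0.65) had the smallest p. Both rested on diabetic 2 (700.7 and 3701). On diabetic 1, Bhlhe40 (189.8) was close to normoglycemic 2 (171.7), and Phlda1 (692.1) lay below normoglycemic 2 (861.6). In AAT-treated fat 22 of these 29 had a higher mean than in diabetic fat (median 0.44), 4 of them at an unadjusted p under 0.05. Of all genes, 2.95% were higher at that p. Maff, a small Maf factor, differed by 1.93 ± 0.53, and Bhlhe40 by −0.44 ± 0.58 and Trib1 by −0.39 ± 0.57. Against normoglycemic fat 23 of the 29 were higher in AAT-treated fat (median 0.38, beside −0.05 for the 9 members).

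Of 27 other feedback inhibitors with a probe set, 25 were above the filter. Among these 25, 18 were lower in diabetic than in normoglycemic fat, with a median of −0.35, and 19 were higher in AAT-treated than in diabetic fat, with a median of 0.25. Errfi1, an inhibitor of the EGF receptor, differed by −1.24 ± 0.52 and 1.25 ± 0.52. Its signal was 837.8 and 1543 in diabetic and 4760 and 1638 in normoglycemic fat, so normoglycemic 2 lay close to diabetic 2. Dusp8, a phosphatase of the stress kinases, differed by −1.21 ± 0.61 between diabetic and normoglycemic fat. It was weak in diabetic fat (69.9 and 123.5), and of the normoglycemic arrays (632.4 and 142.5) only the first lay far above. Tsc22d3, the glucocorticoid-induced leucine zipper, had 10405 and 10493 in AAT-treated, 1979 and 7092 in diabetic, and 4085 and 2483 in normoglycemic fat. It was thus higher in AAT-treated fat than in both other groups (1.46 ± 0.56 over diabetic and 1.69 ± 0.56 over normoglycemic fat), unlike Dusp1. Nab1, a corepressor that binds Egr proteins, differed by 0.51 ± 0.30 between diabetic and normoglycemic fat and by −0.24 ± 0.30 between AAT-treated and diabetic fat, signs opposite to those of Egr1. Among the Sprouty genes, inhibitors of receptor tyrosine kinase signalling, Spry4 differed by 0.67 ± 0.55 between diabetic and normoglycemic fat and Spry2 by −0.24 ± 0.34 between AAT-treated and diabetic fat.

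Transcripts of the kinases, receptors and transcription factors upstream of these genes were counted too. Of 24 measured, 17 were higher in diabetic than in normoglycemic fat (46.4% of all genes were), with a median of 0.29. The kinase gene Mapk8 differed by 1.13 ± 0.35 and the insulin receptor gene Insr by 1.01 ± 0.51, while Map2k1 differed by −0.60 ± 0.32 and Jak1 by −0.57 ± 0.32. In AAT-treated fat 14 of the 24 had a higher mean than in diabetic fat (median 0.06), 0 of them at an unadjusted p under 0.05. Of all genes, 2.95% were higher at that p. Srf, the serum response factor, had 842.7 and 1146 in AAT-treated, 446.8 and 634.7 in diabetic, and 493.7 and 742.2 in normoglycemic fat, a difference of 0.80 ± 0.36 between AAT-treated and diabetic fat. The leptin receptor gene Lepr differed by 1.19 ± 0.55, Mapk14, the gene of p38, by −0.71 ± 0.32 and Tyk2 by −0.69 ± 0.35.

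Between AAT-treated and normoglycemic fat, where the members above the filter overlapped, some genes of these lists lay apart. Of the genes named below, Nr4a2, Myc and Egfr overlapped as well. Fosl2, an AP-1 subunit, differed by 1.51 ± 0.44 and Jund by 0.87 ± 0.36, with both AAT-treated arrays above both normoglycemic ones, and 7 of 8 AP-1 genes were higher (median 0.41). Maff differed by 1.24 ± 0.53 and Gem, a small GTPase gene, by 1.19 ± 0.54, while Nr4a2, a close relative of Nr4a1, differed by −0.42 ± 0.41 and Myc by −0.23 ± 0.37. Among feedback inhibitors Cish, a relative of Socs3, differed by −0.82 ± 0.36 and Spry2 by −0.69 ± 0.34, both lower on the AAT-treated arrays without overlap. Lepr differed by 1.56 ± 0.55, Mrtfb, a coactivator of serum response factor, by 0.88 ± 0.37, Egfr by −0.60 ± 0.37 and Map2k2 by −0.43 ± 0.31. The adjusted p of these genes was 0.875 or higher.

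**Figure D5:**
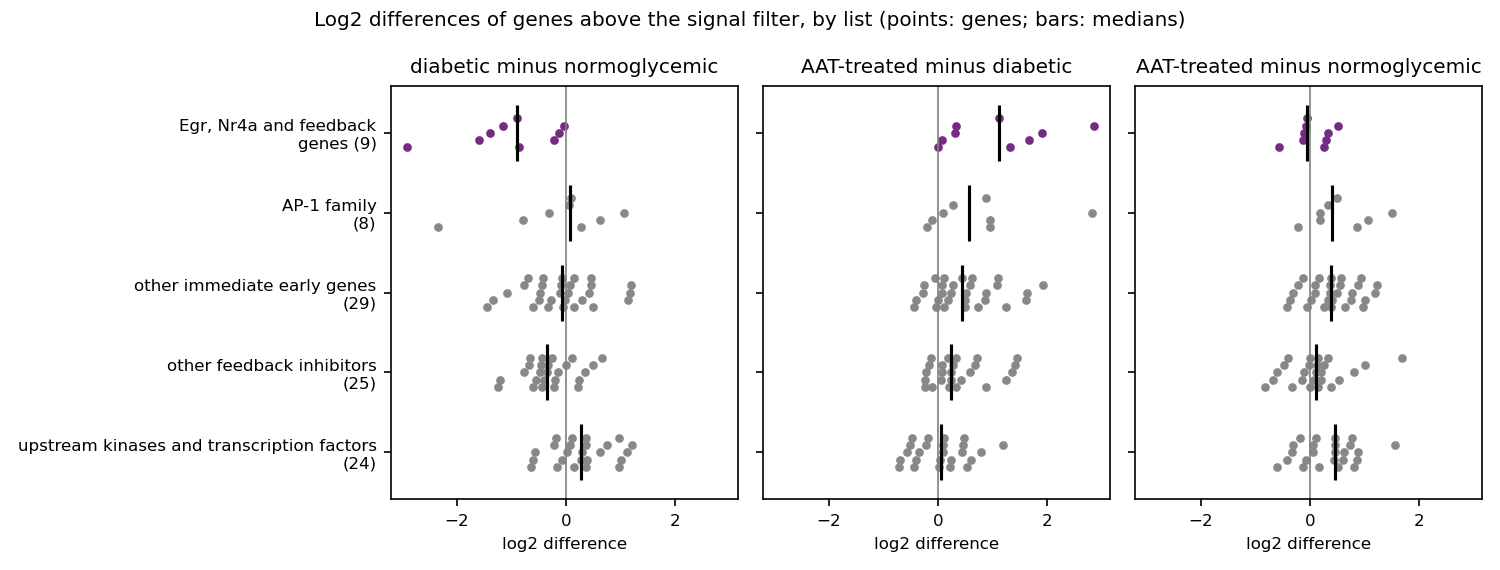
Log2 differences of the genes above the signal filter in 5 lists, with the number of genes in brackets, for the 3 comparisons. Points are genes and bars are medians. The Egr, Nr4a and feedback genes have the lowest median for diabetic minus normoglycemic (−0.89) and the highest for AAT-treated minus diabetic (1.12) of the 5 lists.

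The genes outside the set whose log2 levels ran most like the mean of the 9 members over the 6 arrays, by Pearson's r, were Capza2 (0.990), Acr (0.986), Hipk3 (0.983), Thumpd1 (0.982) and Ipo9 (0.981). For Egr1 alone they were Lrba (0.988), Hipk3 (0.979), Acr (0.976), Nap1l1 (0.976) and Fos (0.976). With 13058 genes and 6 arrays that fall into 3 groups, high values of r arise readily, and they are given as a description. Fos was the gene of the response among these 10 places. Hipk3, a protein kinase gene, had 9210 and 7910 in AAT-treated, 3491 and 4983 in diabetic, and 8252 and 10331 in normoglycemic fat.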

How the data were processed

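Fat RNA of 6 samples was measured on Affymetrix mouse arrays. Per the labels' protocols, Trizol served to isolate total RNA, and biotin labelling followed Affymetrix's single cycle. The deposited values are intensities, 45101 probe set signals on each array; the submitters' processing notes name MAS5, whose version is not given in the sources used here. The mean without the lowest and highest 2% was 500 on every array, so the scaling was kept; precision is limited by how few arrays there are. By the platform annotation, 34945 probe sets carried 1 symbol, 932 carried several and 9160 none, beside 64 controls; gene IDs of 34741 were found in RefSeq's table, with 0 symbols changed. Only those with 1 symbol were used, as log2(signal + 74), 74 being the 25th percentile over all arrays. The filter, a mean signal above 164 (40th percentile), passed 22101 of them, and a gene was represented by its brightest one.

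Differences were tested in R 4.3.3 with limma 3.58.1 (a mean for each group, 6 arrays in 1 fit, trended eBayes, 2-sided, Benjamini-Hochberg adjustment over 13058 genes, threshold 0.05), with 3 residual and 5.37 prior degrees of freedom; the step was tested on simulated data. With 2 arrays against 2, the smallest exact permutation p is 0.333, so that test was not run. Alternatives were the pseudocount, scaling, filter, probe-set choice, variance model (statmod 1.5.0 for the robust one), samples in the fit, a replicate block and leaving out arrays. The members and lists were chosen with earlier results of these data known. Genes named outside the set were, by a stated rule, the 2 of each list, direction and comparison with the smallest unadjusted p, of which the text gives most, and the 5 most like the members or Egr1.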

Additional observations from a re-analysis of the deposited data

How the results depend on the processing

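With 2 arrays per group, single arrays decided many values, and no detection calls were used to bound weak signals. The signs of the differences of Egr1, Ier2, Zfp36 and Dusp1 between diabetic and normoglycemic and between AAT-treated and diabetic fat were the same under all alternatives run. As both diabetic arrays lay below all others for these genes, only the changes of scaling could have turned a sign. The other alternatives therefore do not test these signs. The count past an adjusted p of 0.05 stayed at 0 in all comparisons, except for 1 gene with no filter between AAT-treated and diabetic fat, and a range of 0 to 3 between AAT-treated and normoglycemic fat when single arrays were left out (3 without normoglycemic 2). The cause was not tested, and leaving out an array of a compared group leaves that group without a spread of its own. Genes at an unadjusted p under 0.05 ran from 554 (without normoglycemic 1) to 1938 (without normoglycemic 2) for diabetic against normoglycemic, from 261 (without AAT-treated 2) to 1272 (without AAT-treated 1) for AAT-treated against diabetic, and from 280 (without normoglycemic 1) to 1512 (without normoglycemic 2) for AAT-treated against normoglycemic fat; the first was also 745 without diabetic 1 and 767 without diabetic 2.

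Leaving out single arrays moved the median over the 10 genes between −1.38 and −0.31 for diabetic against normoglycemic fat, between 0.45 and 1.12 for AAT-treated against diabetic fat, and between −0.14 (without normoglycemic 1) and 0.32 (without AAT-treated 2) for AAT-treated against normoglycemic fat, where it was 0.11 with all arrays. Between diabetic and normoglycemic fat the ranges that crossed 0 were −0.87 to 0.43 for Nr4a1, −0.42 to 0.18 for Ier3 and −0.52 to 0.45 for Btg2. Between AAT-treated and diabetic fat they were −0.77 to 0.62 for Egr2, −0.71 to 1.36 for Egr3, −0.57 to 0.74 for Nr4a1, −0.29 to 0.31 for Ier3 and −0.41 to 1.08 for Btg2. Between AAT-treated and normoglycemic fat they were −0.56 to 0.47 for Egr1, −1.60 to 0.47 for Egr3, −0.28 to 0.010 for Nr4a1, −0.22 to 0.0012 for Ier3, −0.45 to 1.04 for Btg2, −0.52 to 0.36 for Dusp1 and −0.24 to 0.76 for Socs3.

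Centring each array on its median shifted every difference against normoglycemic fat by 0.11, which turned Btg2 to 0.072 for diabetic fat, and Egr1 to 0.061 and Dusp1 to 0.030 for AAT-treated fat. Without both normoglycemic 1 and AAT-treated 2, the AAT-treated against diabetic differences were −0.71 for Egr3, −0.060 for Nr4a1 and −0.028 for Ier3, and the AAT-treated against normoglycemic ones 0.46 for Egr1, −2.33 for Egr3, −0.26 for Ier3 and −0.72 for Socs3.

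The replicate numbers pair no samples by the labels, and the deviations of same-numbered arrays correlated at −0.12, −0.50 and 0.08 between the groups. With the replicate block, 0 genes passed in each comparison, the medians over the 10 genes were −0.87, 0.73 and 0.11, and genes at an unadjusted p under 0.05 numbered 895 for diabetic against normoglycemic (1291 without the block), 453 for AAT-treated against diabetic (624) and 503 for AAT-treated against normoglycemic fat (672).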
